A study of Mus musculus with 2 samples.

Results

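The guanylate-binding proteins of the mouse were described across wild-type regulatory T (Treg) cells and those with a knockout of the deubiquitinase POH1. The members were the rows of the deposited count tables whose gene name was Gbp2, Gbp2b, Gbp3, Gbp4, Gbp5, Gbp6, Gbp7, Gbp9, Gbp10 or Gbp11. All 10 genes were found, on 11 of the 34745 rows, because 2 rows carry the name Gbp6. The knockout cells came from poh1fl/fl Foxp3Cre+ mice and the wild-type cells from poh1+/+ Foxp3Cre+ mice. Both kinds of mice were C57BL/6 and 2 weeks old, and the Foxp3-driven Cre was carried by the control mice as well. Splenic CD4+Foxp3+ cells, marked by a yellow fluorescent protein, were sorted, and each genotype is represented by 1 RNA-seq library. Cre is driven by Foxp3, so the allele is meant to be removed in Foxp3-expressing cells. The sources used here do not say whether mice were pooled. POH1, a subunit of the proteasome lid that removes ubiquitin chains, is the product of Psmd14, which was at 31.8 CPM, counts scaled to library size by the TMM method, in the knockout and 89.4 CPM in the wild-type library, 2.81-fold lower in the knockout (2.53 to 3.12). Psmd14 RNA thus remained in the knockout library, and POH1 protein was not measured here. Ranges in parentheses are 95% counting intervals. They cover counting error only. The spread between mice was not measured, so no difference here has a replicate check and no p-value is given. In RNA from sorted cells, a change in the number of cells that express a gene and a change in RNA per cell cannot be told apart.

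Guanylate-binding proteins are large GTPases of the dynamin superfamily that interferon gamma, and to a lesser degree type I interferons, induce in most cell types. The proteins bind and hydrolyse GTP, form assemblies on vacuoles that hold microbes and on microbial surfaces, and promote inflammasome activation. They are best known from macrophages, and T cells also transcribe them after interferon. In the mouse the genes lie in clusters of near copies on chromosomes 3 and 5.

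Upstream sequence was described for the members whose promoters were at hand. RefSeq promoters (GRCm38.p6, 250 bases before to 50 after the start) were at hand for 5 members, Gbp2, Gbp2b, Gbp3, Gbp5 and Gbp7, with 6 start sites in all. No promoter was at hand for the chromosome 5 members. Whether the words searched bear on the difference between the libraries was not tested. The first word searched, on both strands, was GAAA, any 2 bases and GAAA, a core of the interferon-stimulated response element. The other was TTCNNNGAA, the gamma-activated site that binds STAT dimers and reads the same on both strands. The promoters of Gbp2, of Gbp2b and of Gbp5 are shown because these are the chromosome 3 members with the highest ratio of knockout to wild type, the lowest ratio, and an example of both kinds of word. They lie at chr3:142620413-142620712, chr3:142594597-142594896 and chr3:142496684-142496983, all on the plus strand. Capitals mark the words found.
Gbp2: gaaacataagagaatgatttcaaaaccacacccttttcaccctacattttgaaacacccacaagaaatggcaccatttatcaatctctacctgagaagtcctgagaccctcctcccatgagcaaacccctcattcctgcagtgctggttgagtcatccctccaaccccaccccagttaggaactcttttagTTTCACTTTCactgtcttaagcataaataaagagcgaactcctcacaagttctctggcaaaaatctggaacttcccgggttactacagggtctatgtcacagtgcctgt
Gbp2b: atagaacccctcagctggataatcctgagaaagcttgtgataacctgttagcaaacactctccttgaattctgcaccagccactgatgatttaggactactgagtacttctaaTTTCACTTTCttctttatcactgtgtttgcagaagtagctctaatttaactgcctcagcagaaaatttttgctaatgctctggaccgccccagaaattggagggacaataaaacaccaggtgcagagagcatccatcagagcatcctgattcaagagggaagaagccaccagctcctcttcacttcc
Gbp5: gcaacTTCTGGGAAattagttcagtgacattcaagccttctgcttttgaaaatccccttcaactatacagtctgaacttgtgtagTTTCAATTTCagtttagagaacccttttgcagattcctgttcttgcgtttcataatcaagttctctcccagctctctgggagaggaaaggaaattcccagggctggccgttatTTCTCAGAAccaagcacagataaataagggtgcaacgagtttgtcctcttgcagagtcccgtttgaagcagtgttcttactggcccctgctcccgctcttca
The first word was present at the promoters of all 5 members, at 5 of the 6 start sites, whereas 3.44% of 32851 RefSeq promoters of this length held it. Gbp2 and Gbp2b held the same letters, TTTCACTTTC, beginning 59 and 137 bases before the start. Gbp7 held TTTCAGTTTC beginning 53 bases before the start, and Gbp3 held TTTCAGTTTC and TTTCTATTTC, which overlap, beginning 45 and 39 bases before one of its starts. The second word was found at Gbp5 and Gbp7 and not in the windows of the other members, against 8.30% of all promoters. A match is a description of the letters and not evidence of a bound site.

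As a family the genes were higher in the knockout library. The 11 rows summed to 80079 counts, or 5504 CPM, in the knockout and 22282 counts, or 1230 CPM, in the wild-type library. Together they took 0.551% of all counts in the knockout and 0.123% in the wild type. The ratio of knockout to wild type for the family sum was 4.48 (4.41 to 4.54). All 11 rows reached 1 CPM in the knockout or the wild-type library, as did 13464 rows of the whole table, called measured below. The call used here, the 2-fold rule, asks for a counting interval wholly beyond 2-fold. By that rule 10 of the 11 Gbp rows were higher and 0 were lower, against 4.34% of all measured genes higher and 6.63% lower. Of the Gbp rows, 5 had an interval wholly above 4-fold, against 0.876% of measured genes. The members were chosen on this contrast, so these counts describe the choice and support nothing further. The median log2 ratio was 2.04 over the Gbp rows and -0.01 over all measured genes.

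**Figure D1:**
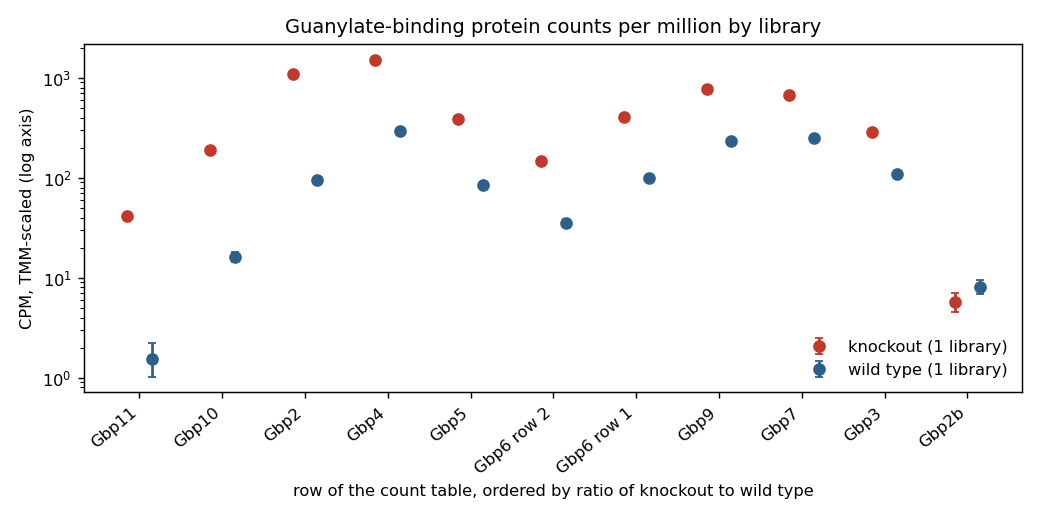
Level of each Gbp row in CPM (log axis) in the knockout library (left point of each pair) and the wild-type library (right point), 1 library each, with 95% Poisson bars for counting error. The knockout point lies above the wild-type point in 10 of the 11 rows and below it for Gbp2b.

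The chromosome 3 cluster held both a member with many counts and a large difference and the 1 member that was not higher. Gbp2, which gathers on vacuoles and bacteria, had 15878 counts (1091 CPM) in the knockout and 1713 counts (94.5 CPM) in the wild-type library. The ratio was 11.5 (10.98 to 12.1), rank 19 from the top among 13464 measured genes when ordered by the end of the interval nearest to no change. Gbp2b, named Gbp1 in older work, had 83 counts (5.71 CPM) in the knockout and 148 counts (8.17 CPM) in the wild-type library. It was thus 1.43-fold lower in the knockout (1.09 to 1.897), which is not past the 2-fold rule. Gbp2 and Gbp2b are direct neighbours on the plus strand with 1.42 kb between them. Of the 50-base runs of the Gbp2 transcript, 2.07% occur in Gbp2b, and 1.84% of those of Gbp2b occur in Gbp2.

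The other members of that cluster lay between these extremes. Gbp5, a promoter of NLRP3 inflammasome assembly in mouse macrophages, had 5618 counts (386 CPM) in the knockout and 1542 counts (85.1 CPM) in the wild-type library, a ratio of 4.54 (4.29 to 4.80). Gbp7, linked in mouse macrophages to delivery of the phagocyte oxidase to bacteria, had 9794 counts (673 CPM) in the knockout and 4577 counts (253 CPM) in the wild type, a ratio of 2.67 (2.57 to 2.76). Gbp3 had 4173 counts (287 CPM) in the knockout and 1977 counts (109 CPM) in the wild type, a ratio of 2.63 (2.49 to 2.77). The intervals of Gbp7 and Gbp3 overlap, whereas that of Gbp5 lies above both. Of the 50-base runs of Gbp3, 4.79% occur in Gbp7, the largest share between members of this cluster. Exons of Gbp7 overlap the processed pseudogene Gm43802 over 11.3% of their length.

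On chromosome 5 every member row was past 2-fold. Gbp4, which in mouse cells restrains the interferon regulator IRF7, drew the most counts of the members, with 21781 counts (1497 CPM) in the knockout and 5328 counts (294 CPM) in the wild-type library. Its ratio was 5.09 (4.94 to 5.25). Gbp9 had 11360 counts (781 CPM) in the knockout and 4209 counts (232 CPM) in the wild type, a ratio of 3.36 (3.24 to 3.48). These intervals do not overlap. The annotated spans of the 2 genes do, but the annotated exon length shared with other genes is 0.814% for Gbp4 and 1.16% for Gbp9. Of their 50-base runs, 12.8% for Gbp4 and 9.56% for Gbp9 occur in other genes. The gene lengths behind the authors' per-length values, 8901 bases for Gbp4 and 9523 bases for Gbp9, exceed the annotated 7494 and 5173 exon bases. The gene models behind the counts are not given, so the overlap in them is unknown.

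Gbp6, Gbp10 and Gbp11 form the distal part of that cluster and are harder to separate. The larger row named Gbp6 had 5866 counts (403 CPM) in the knockout and 1820 counts (100.4 CPM) in the wild-type library, a ratio of 4.01 (3.81 to 4.23). The smaller had 2135 counts (147 CPM) in the knockout and 646 counts (35.7 CPM) in the wild type, a ratio of 4.12 (3.77 to 4.50). Both ratios are alike within counting error, and the tables do not say which locus each row stands for. Gbp10 had 2789 counts (192 CPM) in the knockout and 294 counts (16.2 CPM) in the wild type, a ratio of 11.8 (10.5 to 13.4) whose interval overlaps that of Gbp2. Gbp11 had 602 counts (41.4 CPM) in the knockout and 28 counts (1.55 CPM) in the wild type, a ratio of 26.8 (18.3 to 40.6). It held the highest ratio and, in the wild-type library, the lowest level of the family, and it ranked 8 from the top of all measured genes.

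The annotation calls Gbp11 a polymorphic pseudogene and the other 9 members protein-coding. In the transcripts, 62.3% of the 50-base runs of Gbp6 occur in Gbp10, and 70.6% of those of Gbp10 occur in Gbp6. More still occur in the overlapping gene Gm43302, which holds 90.2% of the runs of Gbp6 and 79.2% of those of Gbp10. Gm43302 covers 46.3% of the exon length of Gbp10 and 29.0% of that of Gbp6. The sources used here do not say how reads with several matches were counted, so the split among the Gbp6 and Gbp10 rows is uncertain. Their 3 rows together had 10790 counts in the knockout and 2760 counts in the wild-type library, a ratio of 4.87 (4.67 to 5.08). Gbp11 shares less, with 19.2% of its runs found in any other gene. The lowest sharing was in Gbp5, at 0.234%.

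**Figure D2:**
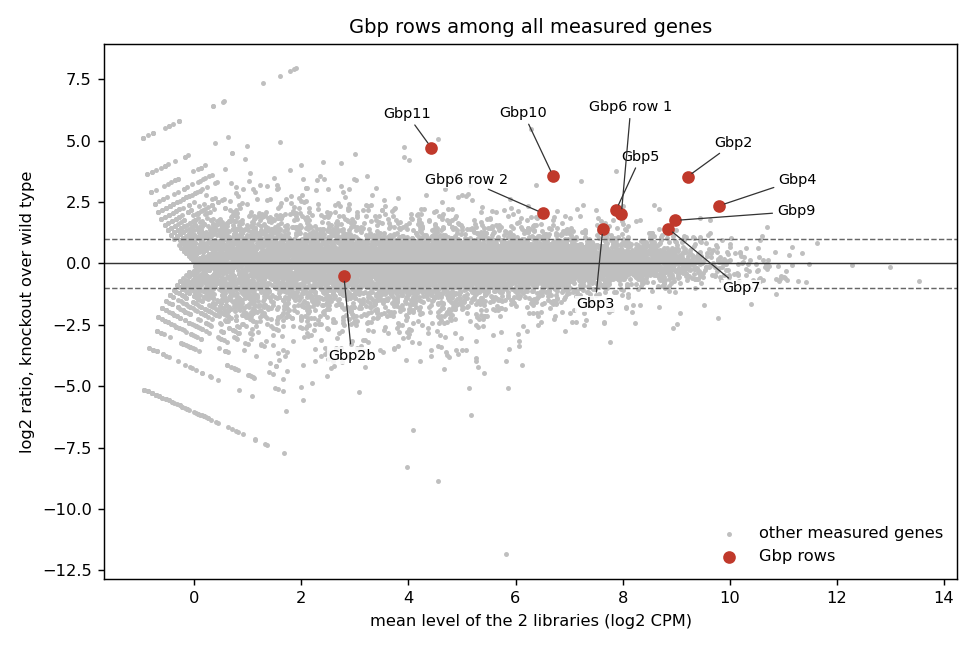
Each measured gene by its mean level over both libraries (log2 CPM) and its log2 ratio of knockout over wild type, with the 11 Gbp rows in red and dashed lines at 2-fold. The Gbp rows other than Gbp2b lie at log2 ratios of 1.39 to 4.72, above the upper 2-fold line, and Gbp2b lies at -0.52.

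By position, the summed ratios of both clusters overlap within counting error. The chromosome 3 members had 2443 CPM in the knockout and 549.5 CPM in the wild-type library, a ratio of 4.45 (4.35 to 4.55), and the chromosome 5 members 3061 CPM in the knockout and 680 CPM in the wild type, a ratio of 4.50 (4.41 to 4.59). The median log2 ratio of their rows was 1.41 on chromosome 3 and 2.19 on chromosome 5. In the mm10 annotation the chromosome 3 members run from 142493978 (Gbp5) to 142638008 (Gbp2), all on the plus strand, over 144.0 kb. Between them lie Gbp7 at 142530342 to 142550149, Gbp3 at 142560026 to 142573209 and Gbp2b at 142594847 to 142619179, and Gbp2 itself starts at 142620602. Those on chromosome 5 run from 105077630 (Gbp9) to 105346472 (Gbp11), all on the minus strand, over 268.8 kb. Gbp4 spans 105115767 to 105139586, Gbp10 105215699 to 105239533, the annotated Gbp6 105270702 to 105293698, and Gbp11 starts at 105323042. Of 10 measured non-member genes within 500 kb of either cluster, 1 was higher by the 2-fold rule and 0 were lower. Over all measured genes the shares were 4.34% higher and 6.63% lower. The 1 higher neighbour was Gbp8, a further family gene beside Gbp9. It was at 151 CPM in the knockout and 63.9 CPM in the wild type, a ratio of 2.37 (2.21 to 2.55). The other 9 neighbours ranged from the aminotransferase gene Kyat3 (named Ccbl2 in the tables) at 2.54 CPM in the knockout and 5.96 CPM in the wild type, 2.34-fold lower (1.60 to 3.50), to the transporter gene Abcg3 at a ratio of 1.38 (1.25 to 1.52). The pseudogene Gbp2-ps had 0 counts in both libraries.

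**Figure D3:**
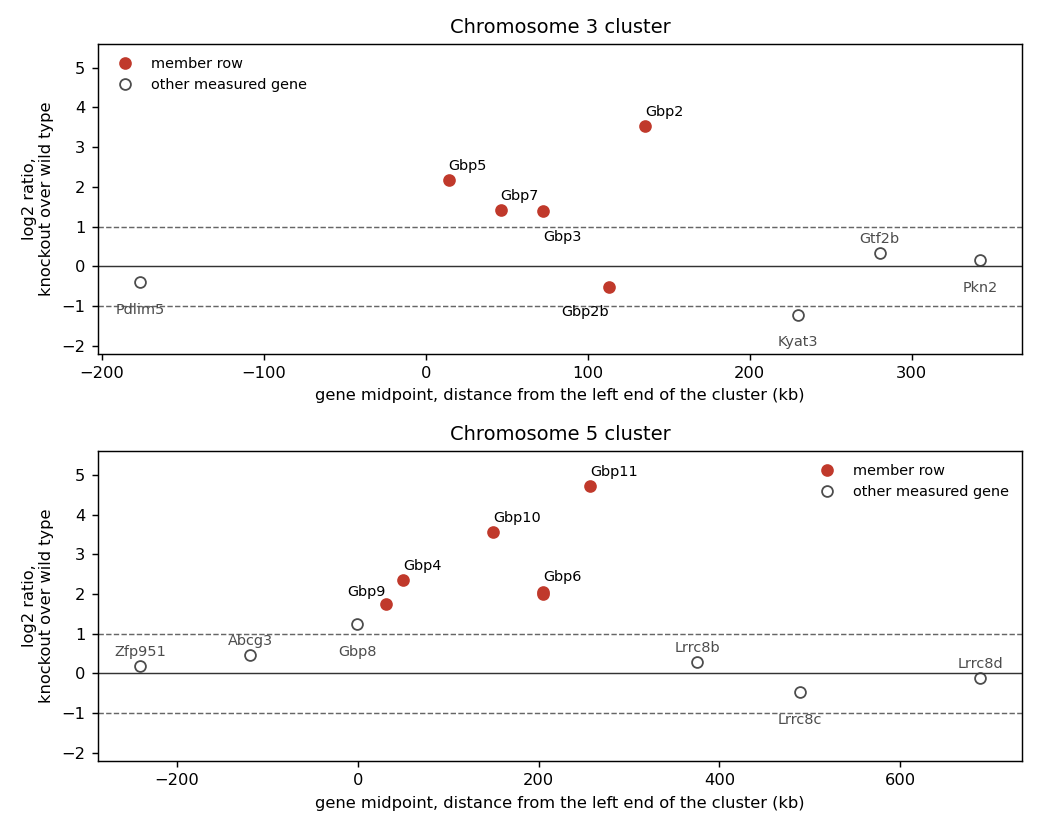
Log2 ratio of knockout over wild type of each measured gene against the distance of its midpoint from the left end of the Gbp cluster (kb), for chromosome 3 (top) and chromosome 5 (bottom), with members in red and other genes open. Members reach 3.53 (Gbp2) and 4.72 (Gbp11), while flanking genes other than Gbp8 stay between -1.22 and 0.46.

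The make-up of the family differed as well. Gbp2 took 19.8% of the family's counts (19.6% to 20.1%) in the knockout and 7.69% (7.34% to 8.05%) in the wild-type library, by exact binomial intervals. Gbp4 took 27.2% (26.9% to 27.5%) in the knockout and 23.9% (23.4% to 24.5%) in the wild type, the largest share of counts in both. Counts grow with gene length, so a larger share of counts than another member's does not mean a higher level. Gbp7 took 12.2% (12.004% to 12.5%) in the knockout and 20.5% (20.0% to 21.1%) in the wild type. Gbp9 held 14.2% in the knockout and 18.9% in the wild type, and Gbp3 held 5.21% in the knockout and 8.87% in the wild type. The intervals of both libraries do not overlap for any of these 5 rows, nor for Gbp10, Gbp11, Gbp2b and the larger Gbp6 row. For the smaller Gbp6 row they overlap, at 2.67% (2.56% to 2.78%) in the knockout and 2.90% (2.68% to 3.13%) in the wild type. These intervals cover counting error only. The share of Gbp5, at 7.02% (6.84% to 7.19%) in the knockout and 6.92% (6.59% to 7.26%) in the wild type, moved by less than counting error.

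**Figure D4:**
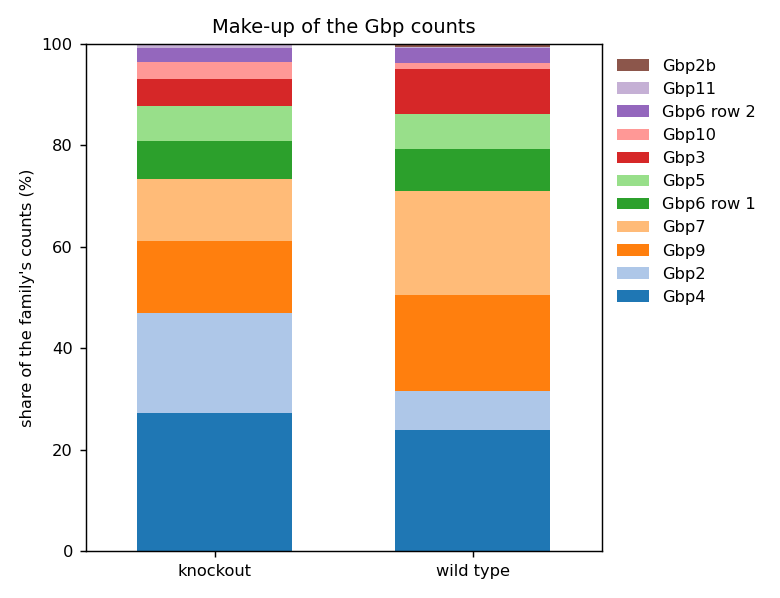
Share of the family's counts (%) held by each of the 11 Gbp rows, as stacked bars for the knockout (left) and wild-type (right) libraries. The Gbp2 segment is 19.8% of the knockout bar and 7.69% of the wild-type bar, and the Gbp7 segment is 12.2% of the knockout bar and 20.5% of the wild-type bar.

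Levels can be compared between members only per length, for which the authors' FPKM, which divide by gene length as well as depth, serve. In the knockout library Gbp2 led at 386 FPKM, followed by Gbp4 at 168 FPKM, Gbp7 at 103 FPKM and Gbp9 at 82.0 FPKM. In the wild-type library Gbp7 led at 38.6 FPKM (37.5 to 39.7), and Gbp2 at 33.4 FPKM (31.8 to 35.0) and Gbp4 at 33.03 FPKM (32.1 to 33.9) did not differ beyond counting error. Gbp2b was lowest in the knockout at 2.02 FPKM, and Gbp11 was lowest in the wild type at 0.505 FPKM. The order rests on the lengths behind the FPKM, which were 9993 bases for Gbp5 and 2830 bases for Gbp2, whereas their longest coding transcripts in the annotation have 3055 and 2516 bases. With those transcripts as the length, chosen after the data were seen and leaving out Gbp6, Gbp2 was still highest in the knockout at 434 CPM per kb but at place 5 of 9 in the wild type at 37.6 CPM per kb, where Gbp4 led at 64.8 CPM per kb.

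Genes that carry the interferon signal stood higher in part. In the list of interferon gamma receptor and signalling genes, 5 of 14 measured members were higher by the 2-fold rule and 0 lower, beside 4.34% and 6.63% of all measured genes. Their median log2 ratio was 0.78. Socs1, which inhibits the receptor kinases, was at 124 CPM in the knockout and 33.2 CPM in the wild type, a ratio of 3.73 (3.40 to 4.10). Irf1, an interferon-induced transcription factor that acts on Gbp promoters, was at 383 CPM in the knockout and 146 CPM in the wild type, a ratio of 2.62 (2.497 to 2.74). Of the receptor chains, Ifngr1 had a ratio of 1.40 (1.34 to 1.47) and Ifngr2 one of 2.12 (1.95 to 2.31), and the kinase gene Jak1 was at 713 CPM in the knockout and 796 CPM in the wild type.

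Transcripts of the inducing cytokines were few. Of 13 ligand genes, 3 were measured and 0 were past the rule in either direction, with a median log2 ratio of -0.09. Ifng, the gene of interferon gamma, had 111 counts (7.63 CPM) in the knockout and 173 counts (9.55 CPM) in the wild-type library, a ratio of 0.799 (0.624 to 1.02). Ifnb1 and 6 other interferon genes had 0 counts in both libraries, which allows up to 3 counts each, or 0.206 CPM in the knockout and 0.166 CPM in the wild type. Cytokine made by cells outside the sort is not seen in these data.

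Among other GTPase families the picture differed by family. The counts stand beside 4.34% of all measured genes higher and 6.63% lower. In the immunity-related GTPases, small interferon-inducible GTPases that act with the Gbp proteins on vacuoles in mice, 9 of the 12 that were measured passed upward and 0 downward. Their median log2 ratio was 2.29. Igtp, with the most counts of this list, was at 641 CPM in the knockout and 125 CPM in the wild type, a ratio of 5.13 (4.90 to 5.38). Iigp1 was at 437 CPM in the knockout and 32.0 CPM in the wild type, and Gm4951 at 29.0 CPM in the knockout and 1.05 CPM in the wild type, a ratio of 27.7 (17.5 to 46.4) that is close to that of Gbp11. In the very large interferon-inducible GTPases 0 of 5 were past the rule (median 0.08), and in the dynamin and atlastin genes, structural relatives of the Gbp proteins, 0 of 10 (median 0.24). The antiviral dynamin-like genes Mx1 and Mx2 had ratios of 1.17 (0.992 to 1.39) and 1.08 (0.822 to 1.43).

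Type I interferon-stimulated genes were higher in 10 of 24 measured members and lower in 0, beside 4.34% and 6.63% of all measured genes. Their median log2 ratio was 1.04. Zbp1, a nucleic acid sensor gene with the most counts of this list, was at 389 CPM in the knockout and 127 CPM in the wild type, a ratio of 3.06 (2.91 to 3.21). Ifit3 had a ratio of 6.82 (5.71 to 8.18), while Ifit2 stood at 1.52 (1.39 to 1.67) and Rsad2 at 1.07 (0.778 to 1.48). In the list of antigen loading and immunoproteasome genes 3 of 11 were higher and 0 lower (median 0.81). Of these, the peptide transporter gene Tap2 was at 587 CPM in the knockout and 267 CPM in the wild type, a ratio of 2.20 (2.12 to 2.28).

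Genes of the partners through which Gbp proteins act were read against the same background of 4.34% higher and 6.63% lower. In the inflammasome list 1 of 13 measured genes was higher and 1 lower, near those shares, with a median log2 ratio of -0.03. Of the 13, 6 had a log2 ratio above 0. Caspase genes Casp1 and Casp4, whose products Gbp proteins help to activate, were lower without passing the rule. Casp1 was at 9.35 CPM in the knockout and 17.2 CPM in the wild type, and Casp4 at 9.62 CPM in the knockout and 18.5 CPM in the wild type. Casp8 was at 303 CPM in the knockout and 197 CPM in the wild type, a ratio of 1.54 (1.48 to 1.61). Gsdmd had a ratio of 1.455 (1.33 to 1.59). The DNA sensor gene Aim2 was at 31.5 CPM in the knockout and 54.5 CPM in the wild type, 1.73-fold lower (1.55 to 1.94). The 1 lower gene was Naip5, a flagellin sensor, at 7.63 CPM in the knockout and 23.2 CPM in the wild type, 3.05-fold lower (2.47 to 3.79), and the 1 higher gene was the pyrin gene Mefv, with 41 counts in the knockout and 12 in the wild type, a ratio of 4.26 (2.19 to 8.89).

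In the list of ATG8 conjugation and vacuole ubiquitin genes, which direct Gbp proteins to vacuoles, 2 of 14 were higher and 0 lower (median 0.18), beside 4.34% and 6.63% of all measured genes. These were the ATG8 homolog gene Gabarapl1, at a ratio of 2.68 (2.30 to 3.13), and the ubiquitin ligase gene Trim21, at 2.69 (2.49 to 2.91). Among the enzymes that attach lipid anchors to proteins with a C-terminal prenylation motif, as some Gbp proteins have, 0 of 8 were past the rule (median 0.15).

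**Figure D5:**
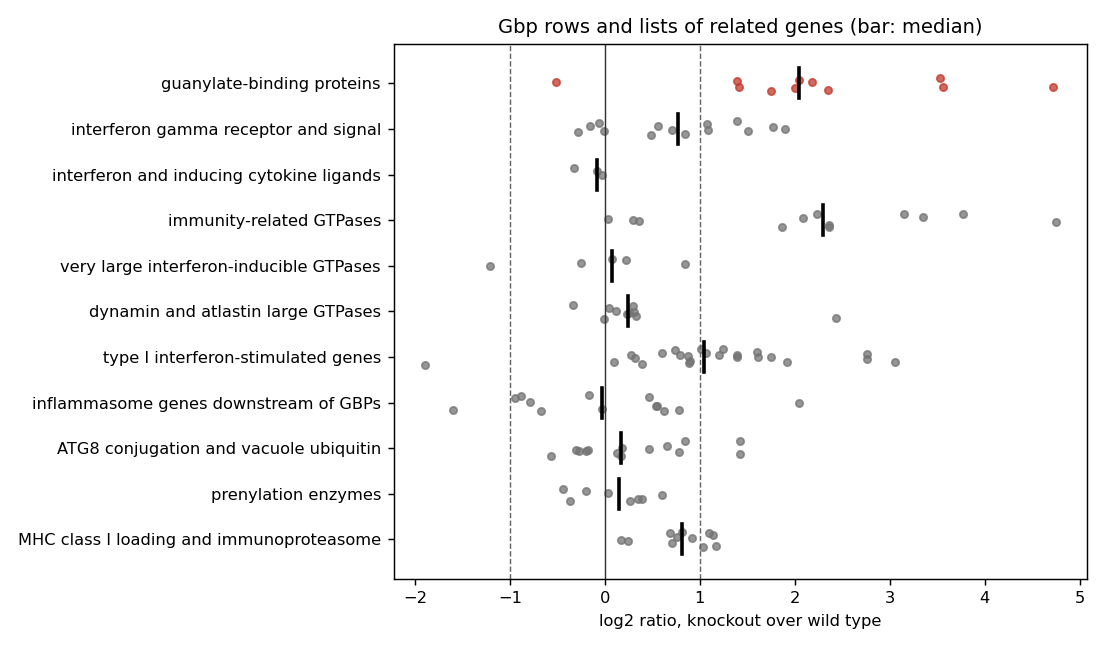
Log2 ratio of knockout over wild type of each measured gene (points) and the median (bar) for the Gbp rows (red) and 10 lists of related genes (grey), with dashed lines at 2-fold. The medians of the Gbp rows and the immunity-related GTPases are 2.04 and 2.29, and those of the inducing cytokines and inflammasome genes are -0.09 and -0.03.

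With 2 libraries, likeness to the family is no more than a like ratio. The measured non-member genes at 5 CPM or more whose log2 ratio was closest to 2.16, that of the family sum, were Fcgr2b, Ncoa7 and Lilr4b. Ncoa7, a coactivator gene with an interferon-induced isoform, was at 297 CPM in the knockout and 66.7 CPM in the wild type. Fcgr2b, an inhibitory IgG receptor gene, was at 18.7 CPM in the knockout and 4.14 CPM in the wild type, and Lilr4b, a receptor gene of myeloid cells, at 12.03 CPM in the knockout and 2.65 CPM in the wild type.

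Marker counts past the rule likewise stand beside 4.34% of all measured genes higher and 6.63% lower. Of the 8 markers of the sorted cells, 0 passed the rule in either direction. They summed to 5290 CPM in the knockout and 5118 CPM in the wild type, with single genes on both sides. Foxp3 was at 1073 CPM in the knockout and 671 CPM in the wild type, and Il2ra at 1530 CPM in the knockout and 990 CPM in the wild type. Ctla4 was at 703 CPM in the knockout and 1120 CPM in the wild type, and Ikzf2 at 526 CPM in the knockout and 825 CPM in the wild type. Of 12 macrophage and monocyte markers, whose cells also express Gbp genes, 0 were higher and 1 lower, and their sum was 413 CPM in the knockout and 453 CPM in the wild type. That 1 was Ccr2, which T cells also express, at 9.69 CPM in the knockout and 108 CPM in the wild type. Without it, an alternative chosen after the data were seen, the direction turned, and the other 11 markers summed to 404 CPM in the knockout and 344.5 CPM in the wild type, a ratio of 1.17 (1.13 to 1.21). Their ratios ran from 0.762 (0.645 to 0.899) for Cd68 to 1.74 (1.60 to 1.895) for Csf1r. By the ratio itself 9 of the 12 were above equality, but for several of these the interval includes 1. The median log2 ratio of the 12 was 0.13, and that of all measured genes was -0.01. Markers of CD8 T cells were higher in 1 of 2 genes (sum 47.4 CPM in the knockout and 18.8 CPM in the wild type). B cell markers were lower in 4 of 6 genes (sum 28.8 CPM in the knockout and 112 CPM in the wild type). Erythroid markers were lower in 4 of 6 (sum 17.0 CPM in the knockout and 60.3 CPM in the wild type). Dendritic cell markers were lower in 4 of 7 (sum 21.1 CPM in the knockout and 30.0 CPM in the wild type). Of these, Xcr1, Clec9a and Cd209a had 0 counts in the knockout. Of the 7 dendritic cell markers, 1 had a log2 ratio above 0. It was Itgax, which had the most counts of them in the knockout, at a ratio of 1.73 (1.39 to 2.15). Zbtb46 was level within counting error, at 0.989 (0.574 to 1.69). Neutrophil markers were lower in 2 of 4 measured genes (sum 3.92 CPM in the knockout and 13.1 CPM in the wild type) and endothelial and stromal markers in 2 of 4 (sum 190 CPM in the knockout and 175 CPM in the wild type, mostly Pecam1). Of 6 NK cell markers 1 was measured, with 0 past the rule (sum 0.962 CPM in the knockout and 1.49 CPM in the wild type), and Klra8, Klra4 and Klre1 had 0 counts in both libraries. The part of these other cells in the Gbp difference was not tested.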

How the data were processed

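RNA was sequenced from sorted splenic Treg cells, with 1 library per genotype, made with the TruSeq RNA v2 kit, per the labels' protocols, which does not mark strand. TopHat, HTSeq and mm10 are named in the submitters' processing notes. Versions, gene models and the treatment of multiply matching reads are not given in the sources used. The authors deposited, per the file headers, whole-number read counts beside FPKM for 34745 rows. Counts summed to 14544212 in the knockout and 18124611 in the wild-type library. The deposited FPKM values were used for levels between genes and, as an alternative, for ratios of knockout to wild type.

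Counts were scaled with TMM factors (edgeR 4.0.16, R 4.3.3). No model was fitted. Ratios have exact 95% conditional-binomial intervals, and log2 ratios had 0.5 counts added. Intervals cover counting error only, because each genotype has 1 library. The libraries lack molecular identifiers, so repeated reads of the same molecule are not set apart and the intervals may be too narrow. Measured means reaching 1 CPM in either library. Lists took the row with most counts for a shared name, and names were also matched through RefSeq synonyms. Named genes were the members, Psmd14, the ends and the gene with most counts of each of 10 related lists and 9 marker lists (1 of these genes is not reported here), locus neighbours past the rule and 3 genes of like ratio, and a few further genes were named after their values were seen for their known roles. The members and lists were chosen with earlier results of these data known. Coordinates, exons and transcripts came from GENCODE M21 (mm10), which matched 32724 of 34678 names. Intervals used scipy 1.17.1 under Python 3.11.15. They were also run on simulated counts that held counting error only. That run therefore says nothing about spread between mice or repeated reads. Other scalings, filters, thresholds and subsets of members were tried as alternatives.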

Additional observations from a re-analysis of the deposited data

How the results depend on the processing

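The family ratio of 4.48 stayed above 4 under every alternative run. It was 4.602 with upper-quartile factors, 4.28 without the member with the most counts (Gbp4), 4.96 without members whose exons overlap another gene over more than 10% of their length, 4.37 with Gbp8 added (chosen after the data were seen) and 5.28 as a ratio of summed FPKM. With the interval required beyond 4-fold, 5 Gbp rows were higher, and 118 genes were higher and 259 lower in the whole table, against 585 and 892 at 2-fold. Beyond 1.5-fold these were 1290 and 1659, and with the ratio itself beyond 2-fold 1206 and 1567. The ratio of the macrophage and monocyte marker sum was 0.913 with all markers and 1.171 without Ccr2. The place of Gbp2 in the wild-type library was 2 by FPKM and 5 by the longest coding transcript. All 55 recomputed ratios of single Gbp rows stayed within their counting intervals. This is a weak check, because the FPKM ratios of single rows repeat those from plain library totals. Each other scaling moves all genes alike, by at most 0.039 log2 against plain totals. The counts of related lists and locus genes changed by no more than 1.5 times in 88 recomputations under other scalings. That check is weak too, because the scalings differ so little and many of these counts were 0 throughout. No paired analysis was possible because each genotype has 1 library, which also leaves none to leave out. The spread between mice is unknown, and low counts limit Gbp11 and Gbp2b most.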
